A study of Homo sapiens with 4 samples.

Results

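The genes of the collagen chains were followed through 2 lists of enriched regions (peaks) from chromatin immunoprecipitation with sequencing (ChIP-seq) in MDA-MB-231, an established line of triple-negative breast cancer cells. The members were the protein-coding genes of chromosomes 1 to 22 in RefSeq whose symbol is COL, a number, A and a number: 42 of 19122 genes. A subclone of the line, labelled wild type and left untreated, was precipitated with an antibody against the HA tag. The labels call the precipitated protein PD-L1 and list 2 ChIP samples and 2 inputs, with replicate numbers 1 and 2. The sources used here do not say how the tag entered the cells, and no mock precipitation was analysed here. DNA recovered by the antibody in the absence of tagged protein therefore cannot be told apart from DNA bound by PD-L1 in any value below. PD-L1 is a ligand of the T-cell receptor PD-1, known best at the cell surface, and the comparison asks where in these genes the precipitated protein was found. The rule uses symbols alone, but the set was proposed with these peak lists known and so counts as chosen by their covered shares, among them the wide regions over COL7A1 and COL9A3. Its counts and medians are descriptions and carry no test.

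Collagens are the main structural proteins of the extracellular matrix. Each molecule is a triple helix of chains with glycine at regular steps, and the chains fall into families that build fibrils, sheet-like networks, beaded filaments or anchors, or that sit on fibrils or in the cell membrane. In a carcinoma most fibrillar collagen comes from stromal fibroblasts, whereas epithelial cells make basement membrane and anchoring chains; these lists hold no expression values.

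After filtering to chromosomes 1 to 22 the list of replicate 1 had 166313 peaks over 149 Mb and that of replicate 2 had 93106 peaks over 70.3 Mb. Median fold enrichment over the caller's background was 3.14 and 2.27, and median −log10 q was 1.91 and 1.80. The depth of the libraries is unknown, since the lists give no read counts. Peak names in replicate 2 include Merge, and the sources used here leave it undefined. Whether that list was called on replicate 2 alone is therefore unknown, and the sharing and correlation values below may not compare separate replicates. Peaks over the collagen genes had medians close to these. The 629 peaks of replicate 1 that met a member or its flanking 1 kb had a median fold of 3.15 and a median −log10 q of 1.90. For the 375 peaks of replicate 2 the medians were 2.25 and 1.75. No member peak exceeded a fold of 4.47 in replicate 1 or 4.05 in replicate 2.

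The sequence at the starts of these genes is shown because the replicates met the starts differently. The RefSeq promoter table (GRCh38.p14, the build hg38) held 30 of the 42 members, and it supplied their strand. Printed here are the 126 bases between COL4A1 and COL4A2, which point away from each other, and the 250 bases before the start of 5 other members with a shared region there. A shared region is the union of overlapping peaks that holds at least 1 peak of each replicate. COL11A2 and COL10A1 follow as members without a peak of either replicate at the start. Capitals mark the GC box, GGGCGG or its reverse complement CCGCCC.
Gap between COL4A1 and COL4A2 (chr13:110307158-110307283, plus strand): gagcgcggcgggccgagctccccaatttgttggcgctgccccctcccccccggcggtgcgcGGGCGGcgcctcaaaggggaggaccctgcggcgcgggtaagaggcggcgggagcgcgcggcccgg
COL7A1 (chr3:48595330-48595579, minus strand): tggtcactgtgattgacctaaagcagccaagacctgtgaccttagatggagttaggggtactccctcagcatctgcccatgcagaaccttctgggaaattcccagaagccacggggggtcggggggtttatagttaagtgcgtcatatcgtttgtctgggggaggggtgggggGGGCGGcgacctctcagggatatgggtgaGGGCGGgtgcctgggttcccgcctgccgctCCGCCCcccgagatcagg
COL9A2 (chr1:40317287-40317536, minus strand): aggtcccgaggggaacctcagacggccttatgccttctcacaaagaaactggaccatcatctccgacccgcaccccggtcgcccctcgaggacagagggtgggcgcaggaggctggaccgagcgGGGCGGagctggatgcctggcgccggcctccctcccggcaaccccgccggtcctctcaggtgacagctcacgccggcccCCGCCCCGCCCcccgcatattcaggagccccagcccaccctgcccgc
COL8A2 (chr1:36125223-36125472, minus strand): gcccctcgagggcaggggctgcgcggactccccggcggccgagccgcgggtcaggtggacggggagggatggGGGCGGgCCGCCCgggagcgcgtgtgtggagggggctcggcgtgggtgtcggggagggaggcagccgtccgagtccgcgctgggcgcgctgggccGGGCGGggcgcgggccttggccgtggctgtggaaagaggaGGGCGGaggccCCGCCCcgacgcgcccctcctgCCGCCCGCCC
COL16A1 (chr1:31704018-31704267, minus strand): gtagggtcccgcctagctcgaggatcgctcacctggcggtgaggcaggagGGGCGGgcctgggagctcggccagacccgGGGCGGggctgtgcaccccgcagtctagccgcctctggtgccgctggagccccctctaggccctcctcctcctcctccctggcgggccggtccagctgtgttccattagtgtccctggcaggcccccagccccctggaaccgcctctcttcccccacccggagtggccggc
COL13A1 (chr10:69801656-69801905, plus strand): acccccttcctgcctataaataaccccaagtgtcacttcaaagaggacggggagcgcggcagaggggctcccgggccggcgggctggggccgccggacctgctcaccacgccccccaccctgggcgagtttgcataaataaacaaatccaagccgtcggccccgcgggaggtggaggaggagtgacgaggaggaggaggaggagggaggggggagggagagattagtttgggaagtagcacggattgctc
COL11A2 (chr6:33193520-33193769, minus strand): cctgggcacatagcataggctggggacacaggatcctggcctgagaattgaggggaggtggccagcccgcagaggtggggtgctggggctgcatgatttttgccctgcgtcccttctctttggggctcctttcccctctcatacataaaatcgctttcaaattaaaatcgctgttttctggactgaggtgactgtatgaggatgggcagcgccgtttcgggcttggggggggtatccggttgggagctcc
COL10A1 (chr6:116217145-116217394, minus strand): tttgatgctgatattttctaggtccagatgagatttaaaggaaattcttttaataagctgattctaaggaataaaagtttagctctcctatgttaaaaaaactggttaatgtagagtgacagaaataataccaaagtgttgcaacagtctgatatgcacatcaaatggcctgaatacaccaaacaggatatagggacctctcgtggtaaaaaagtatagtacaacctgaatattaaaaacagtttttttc

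The GC box was present in 17 of the 30 collagen promoters of 250 bases, and in 56.1% of all 15100 promoters of that length. Among the 7 members with a shared region within 1 kb of the start, 6 held it, against 65.2% of all genes with such a region. COL8A2, which codes for a chain of the short-chain network under the corneal endothelium, held 7 copies, and its stretch was 82% G and C. COL7A1 and COL9A2 held 3 each and COL16A1 held 2. COL13A1 held none, nor did COL11A2 or COL10A1. Of the 23 members without a shared region at the start, 11 held the GC box, against 52.9% of all genes without one. COL18A1 was among them, with 9 copies in a stretch of 88.4% G and C, the most of any member. COL6A2, also without such a region, held 4. COL11A2 and COL10A1 therefore do not stand for all members without a shared region at the start. A CCAAT box (CCAAT or ATTGG) was found in 6 of 30 promoters, against 34.2% of all, and a TATA box (TATAAA or TTTATA) in 5, against 9.42%. The stretches of COL4A1 and COL4A2 overlap in the gap printed above, so its GC box and CCAAT box are counted for both genes. Median G and C content was 65.8% in the collagen promoters and 62.4% in all. With a shared region at the start it was 73.2% in the 7 members and 64.6% in all 3894 such genes, with the start taken from the promoter table. These matches describe letters, not binding sites.

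In replicate 1 the 250 bases before the start touched a peak in 14 of 30 members, and in 51.7% of all genes. In replicate 2 they did so in 1 member, COL26A1, which codes for a secreted chain of testis and ovary, and in 13.4% of all genes. At the 7 starts with a shared region, the first base lay under a peak of replicate 1 in 6, and under a peak of replicate 2 in none. Over all 30 members with a strand, the first base lay under a peak in 13 in replicate 1 and in 1 in replicate 2. Over all genes with a strand it did so in 45.4% and 9.97%. In replicate 1 the starts of COL4A1 and COL4A2 lay under the same peak, and those of COL4A3 and COL4A4 under another. These neighbours are counted as separate genes. Among all genes with a shared region at the start, the 250 bases before it touched a peak in 79.3% in replicate 1 and 43.3% in replicate 2, against 6 and 0 of the 7 members. The nearest peak of replicate 2 was 204 bp inside COL16A1, 287 bp upstream of COL7A1, 389 bp upstream of COL8A2 and 495 bp upstream of COL13A1. It was 1199 bp inside COL9A2 and 2181 bp inside COL4A2. For COL4A1 the same peak was 2308 bp upstream. At these 7 starts a shared region thus did not mean that the first base was covered in both replicates.

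Over gene bodies, the share of bases under peaks spread widely between members. The median was 8.03% in replicate 1, with a range from 0% to 95.4%, and 5.14% in replicate 2, with a range from 0% to 24.95%. Over all protein-coding genes the medians were 5.34% and 1.42%. More than 20% of the body was covered in 14 members in replicate 1 (29.1% of all genes) and in 4 in replicate 2 (6.77% of all genes). More than 50% was covered in 6 members in replicate 1 (9.78% of all genes) and in 0 in replicate 2 (0.774% of all genes). No base was covered in 3 members in replicate 1 (20.2% of all genes) and in 2 in replicate 2 (37.9% of all genes). The counts over 20% and 50% were near their background, and members without cover were fewer. A peak was present in the gene or the 1 kb on each side of it in 39 members in replicate 1 (82% of all genes) and in 40 in replicate 2 (65.9% of all genes). A shared region was present in 31 members, or 73.8%, against 53% of all genes. Collagen genes are long, with a median of 133 kb against 24.5 kb, and over all genes the percentage with a shared region was 49.5% under 60 kb, 58.9% from 60 to 170 kb and 70.9% above. Among genes of like length and local peak density, as defined below, 64.5% and 64.0% had a shared region, by the density in replicate 1 and in replicate 2. Across the 42 members the covered shares of the replicates ranked alike (Spearman's rho 0.918, Pearson's r 0.895; all points come from the same pair of lists). Over all genes rho was 0.627. The set of all genes holds shorter genes and more genes without cover, and no rho was taken over genes of like length. The 2 values of rho are therefore not like for like.

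**Figure D1:**
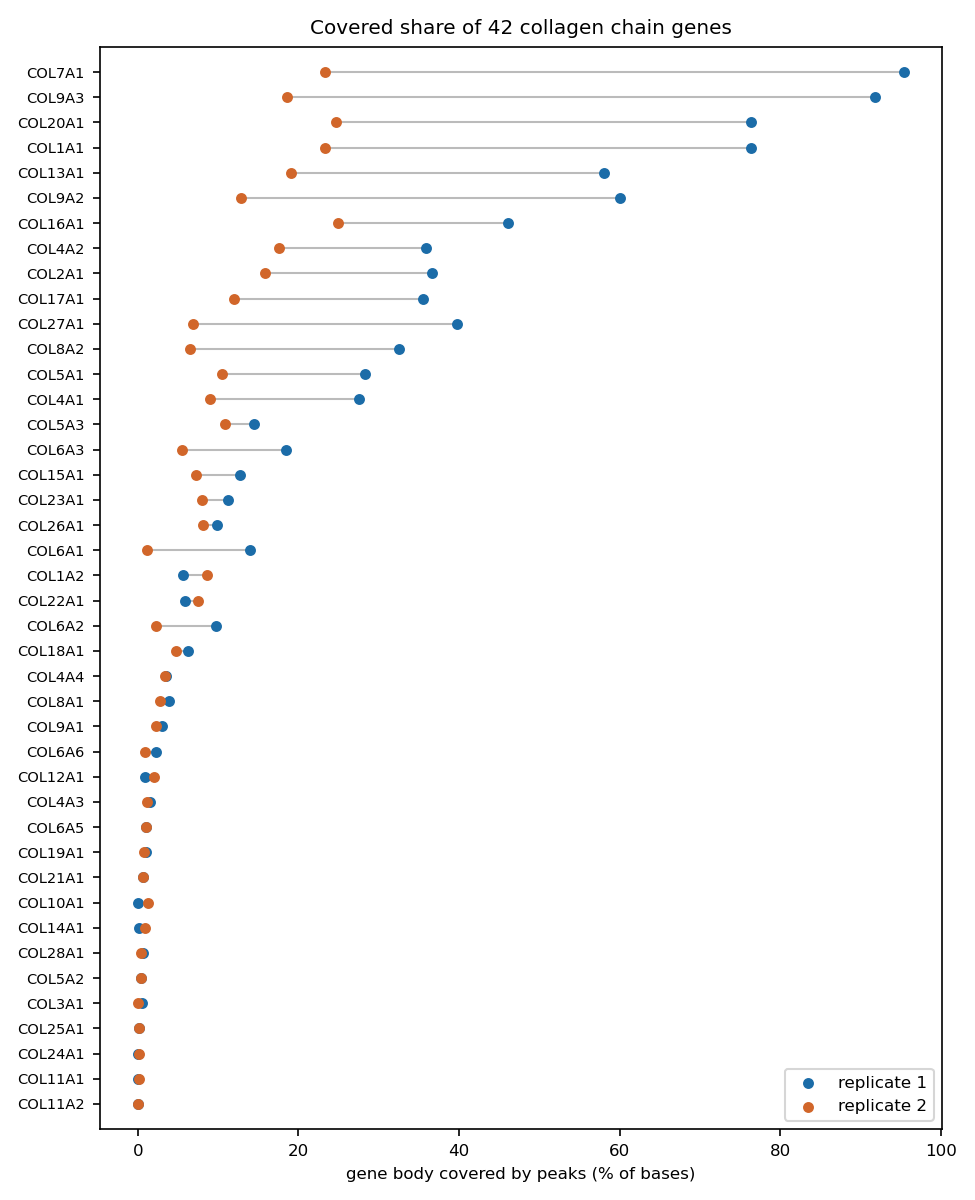
Share of each gene body under peaks, in % of bases, for the 42 collagen chain genes ordered by the mean of the replicates; each point is 1 replicate and the grey line joins them. COL7A1 is highest in replicate 1 at 95.4% and COL16A1 in replicate 2 at 24.95%, and COL11A2 is at 0% in both.

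COL7A1 was the most covered member. It codes for the chain of type VII collagen, the anchoring fibril that fastens the epidermis to the dermis, and lies at chr3:48564073-48595329. Peaks covered 95.4% of its 31.3 kb in replicate 1 and 23.3% in replicate 2. In replicate 1 a peak of 28783 bp (chr3:48572940-48601722, the 6th widest of the list, fold 3.20) spanned its start and 7 of the 10 equal parts of the gene in full. The same stretch held 9 separate peaks in replicate 2. The flanks within 1 Mb were covered to 19.8% and 6.99%, so the gene stood above its surroundings in both lists. At a −log10 q of at least 2 the share stayed at 95.4% in replicate 1 and was 0% in replicate 2. The region also reached UQCRC1, and that at the other end of the gene reached PFKFB4 and UCN2.

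Fibril-associated chains, which sit on the surface of fibrils, included 4 of the 7 genes with the highest mean share. For COL9A3, a chain of cartilage type IX collagen at chr20:62816213-62841159, the share was 91.8% in replicate 1 and 18.5% in replicate 2. COL20A1, also on chromosome 20 (chr20:63293186-63334806), had 76.3% and 24.7%. Their surroundings were heavily covered too: the flanks of COL9A3 had 64.1% and 20.9%, and those of COL20A1 had 62.1% and 19.8%. COL9A3 thus lay 27.7 percentage points above its own flanks in replicate 1 and below them in replicate 2. COL9A2, the second chain of type IX collagen, was different. Its 16.8 kb at chr1:40300489-40317286 were covered to 60.01% and 12.9%, in flanks with 8.02% and 3.58%. COL16A1 (chr1:31652263-31704017), a chain found at the rim of fibrils in skin and cartilage, had 46.1% and 24.95%, in flanks with 13.7% and 4.80%. It held 20 peaks of replicate 1, 12 of replicate 2 and 9 shared regions along the gene.

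The remaining 6 fibril-associated genes were at most 7.46% covered. COL9A1, the remaining chain of type IX collagen, had 2.96% and 2.29%, and COL22A1, a chain of the muscle-tendon junction, had 5.91% and 7.46%. COL12A1 and COL14A1, whose products sit on type I fibrils in tendon and skin, had 0.889% and 1.98%, and 0.195% and 0.926%. COL19A1 had 1.04% and 0.745%, and COL21A1 0.685% and 0.649%. The 3 chains that assemble into type IX collagen therefore ranged from 2.96% to 91.8% in replicate 1 and from 2.29% to 18.5% in replicate 2.

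**Figure D2:**
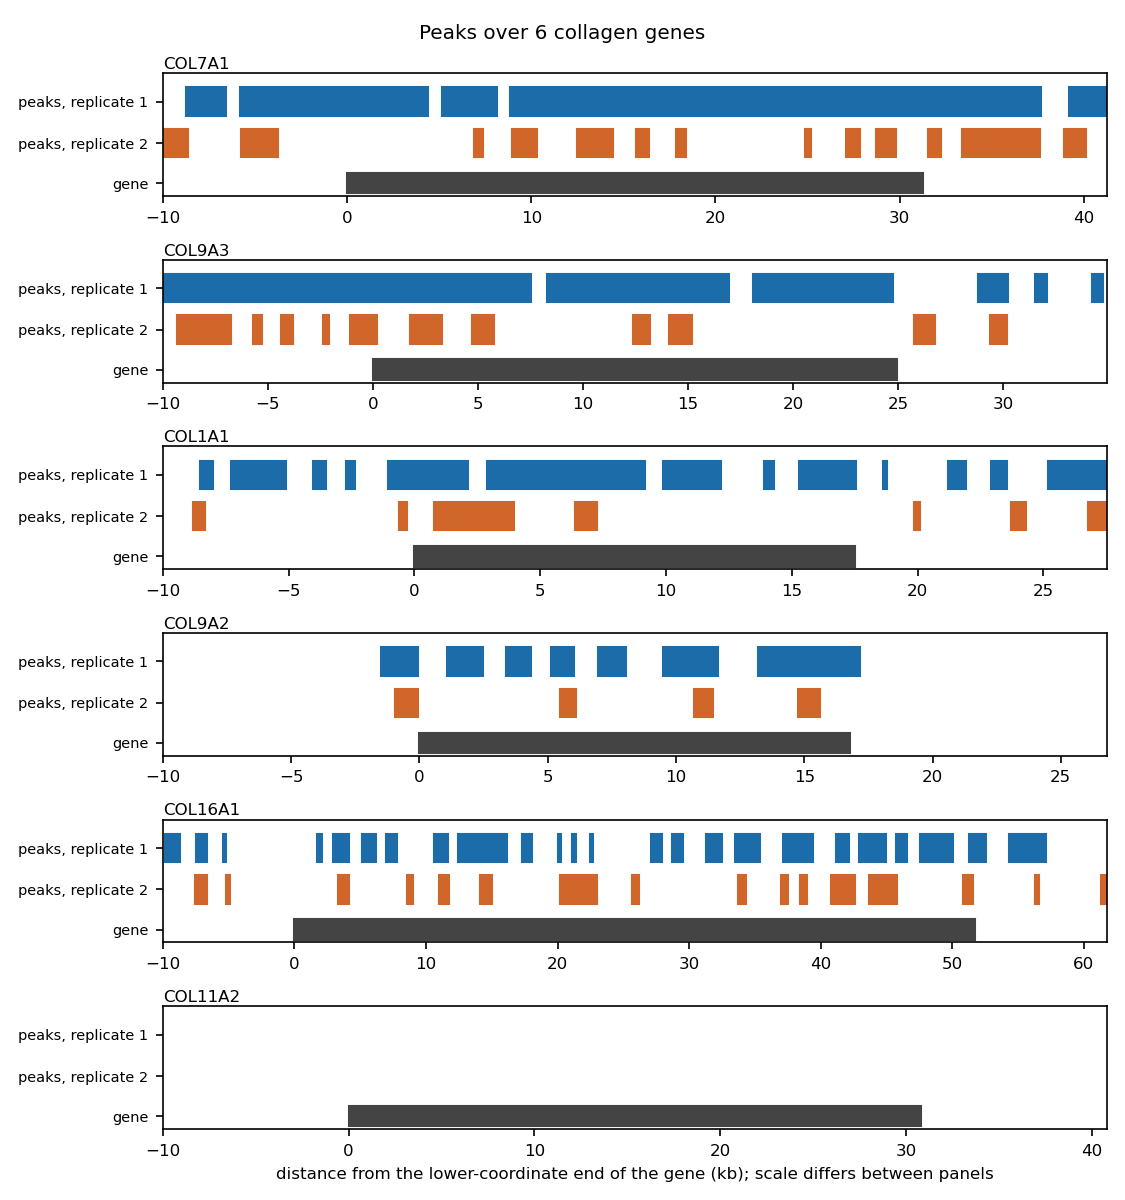
Peaks of replicate 1 (blue) and replicate 2 (orange) over 6 collagen genes (grey bars), by distance in kb from the lower-coordinate end of each gene, with 10 kb on each side. Wide peaks of replicate 1 span most of COL7A1 and COL9A3 where replicate 2 has several narrow peaks, and COL11A2 has none in either list.

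Among the 11 fibril-forming chains the covered share ran from 0% to 76.3% in replicate 1 and from 0% to 23.3% in replicate 2. The partners of type I collagen, the main collagen of bone, skin and tendon, differed. COL1A1 (chr17:50184101-50201631) was covered to 76.3% and 23.3%, in flanks with 25.8% and 10.8%. COL1A2 (chr7:94394895-94431227) had 5.57% and 8.59%, in flanks with 0.601% and 0.311%. Each replicate had 3 peaks in COL1A2, and 1 shared region lay there, at chr7:94426479-94428466 (fold 3.09 and 2.59). COL1A2 was among the 8 members with more cover in replicate 2 than in replicate 1.

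COL2A1, the chain of cartilage fibrils, was covered to 36.6% and 15.9% and held 4 shared regions in 33.2 kb. COL27A1, another cartilage chain, had 39.7% and 6.90%, and COL5A1, which helps to set the diameter of type I fibrils, had 28.3% and 10.4%. COL5A3 had 14.4% and 10.9%. COL3A1, abundant in vessels and skin, had 0.506% and 0%, and its neighbour COL5A2 had 0.439% and 0.412% in 409 kb. COL11A1, the partner of COL11A2 in cartilage, had 0% and 0.139%, and COL24A1 had 0.0463% and 0.101%. COL24A1 nevertheless held the member peak with the highest −log10 q of replicate 2 (4.44, fold 4.05, chr1:85806706-85806929), which met no peak of replicate 1. In replicate 1 the highest was 3.58 in COL5A1 (fold 4.47, chr9:134737024-134737272), and it met a peak of replicate 2.

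COL11A2 was the single member with no peak in either list. It codes for a chain of cartilage type XI collagen and lies at chr6:33162694-33193519, beside the MHC class II genes. The nearest peaks were 295 kb above it and 4658 kb below it in replicate 1, and 297 kb and 4656 kb away in replicate 2. The stretch between these peaks was 4984 kb in both lists and held 171 protein-coding genes. The absence in both lists thus extended over the whole stretch. Replicate 1 listed 24 peaks on alternate sequences of the assembly and replicate 2 listed 3, none of them of chromosome 6.

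The basement membrane chains of type IV collagen come as pairs of neighbouring genes that start next to each other and run apart. COL4A1 and COL4A2, the pair found in nearly all basement membranes, were separated by 126 bp (chr13:110307158-110307283), the gap printed above. A peak of replicate 1 covered the gap in full, and no base of it was covered in replicate 2. COL4A1 was covered to 27.5% and 8.97%, with 47 peaks of replicate 1 and 18 of replicate 2. COL4A2 was covered to 35.9% and 17.6%, with 58 and 36 peaks, and its 23 shared regions were the most of any member. The flanks of COL4A2 had 17.0% and 7.16%. COL4A3 and COL4A4, the pair of the kidney glomerulus, were 135 bp apart. The gap was again covered in full in replicate 1 and not at all in replicate 2, where the nearest peak lay 11813 bp inside COL4A4. COL4A4 had 3.45% and 3.37%, and COL4A3 had 1.46% and 1.11%.

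The beaded filament chains of type VI collagen were at most 5.49% covered in replicate 2. COL6A3, the longest chain, had 18.4% and 5.49%. COL6A1 had 14.03% in replicate 1 and 1.19% in replicate 2, and COL6A2 had 9.75% and 2.27%; both held 6 peaks of replicate 1, 1 of replicate 2 and no shared region. In replicate 2 both lay below their flanks, which had 5.25% and 5.19%. COL6A5 had 0.962% and 1.05%, and COL6A6 had 2.32% and 0.857%. None of the 5 had a shared region at a gene end.

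Among the 4 membrane-spanning chains, COL13A1, found at the neuromuscular junction, was covered to 58.1% and 19.02% over 157 kb and held 46 peaks of replicate 1, 29 of replicate 2 and 22 shared regions. COL17A1, the hemidesmosome chain of basal keratinocytes, had 35.5% and 11.9%. COL23A1 had 11.3% and 7.94%, with 56 and 37 peaks. COL25A1, a neuronal chain, had 0.164% and 0.106% in 494 kb. Its 1 shared region, at chr4:109154465-109154681, had a fold of 3.91 and 3.34. By the mean of its fold ranks in both lists it stood at 430 among 45746 shared regions, the best of any collagen gene; it is named after its values were seen.

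The endostatin-bearing chains of vessel walls were covered to 12.8% and 7.30% for COL15A1 and to 6.30% and 4.80% for COL18A1. In the short-chain group, COL8A2 had 32.5% and 6.44% and COL8A1 had 3.90% and 2.82%. COL10A1, the marker chain of hypertrophic cartilage, had 0% and 1.24%. Of the remaining chains, COL26A1 had 9.80% and 8.09%, and COL28A1, made around peripheral nerves, had 0.599% and 0.456%.

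Covered share was then set against genes of like length and local peak density. For each member these were the 50 other protein-coding genes nearest in log length and in peaks per Mb within 1 Mb of the gene, the gene itself left out, in each replicate. In replicate 1, 28 of 42 members were above the median of their like genes; 47.4% of all genes were above that of their own. In replicate 2 it was 33 of 42, with 43.2% of all genes. Genes without a covered base cannot be above such a median, nor above their own flanks. They made up 20.2% and 37.9% of all genes in replicates 1 and 2, but 3 and 2 of the 42 members. Here and below, the percentages of all genes that were above are therefore not like for like. The median of the difference was 3.48 percentage points in replicate 1 and 1.99 in replicate 2. In both replicates 26 members were above and 7 were at or below, 2 were above in replicate 1 alone and 7 in replicate 2 alone. Members in pairs share their surroundings and are not independent.

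**Figure D3:**
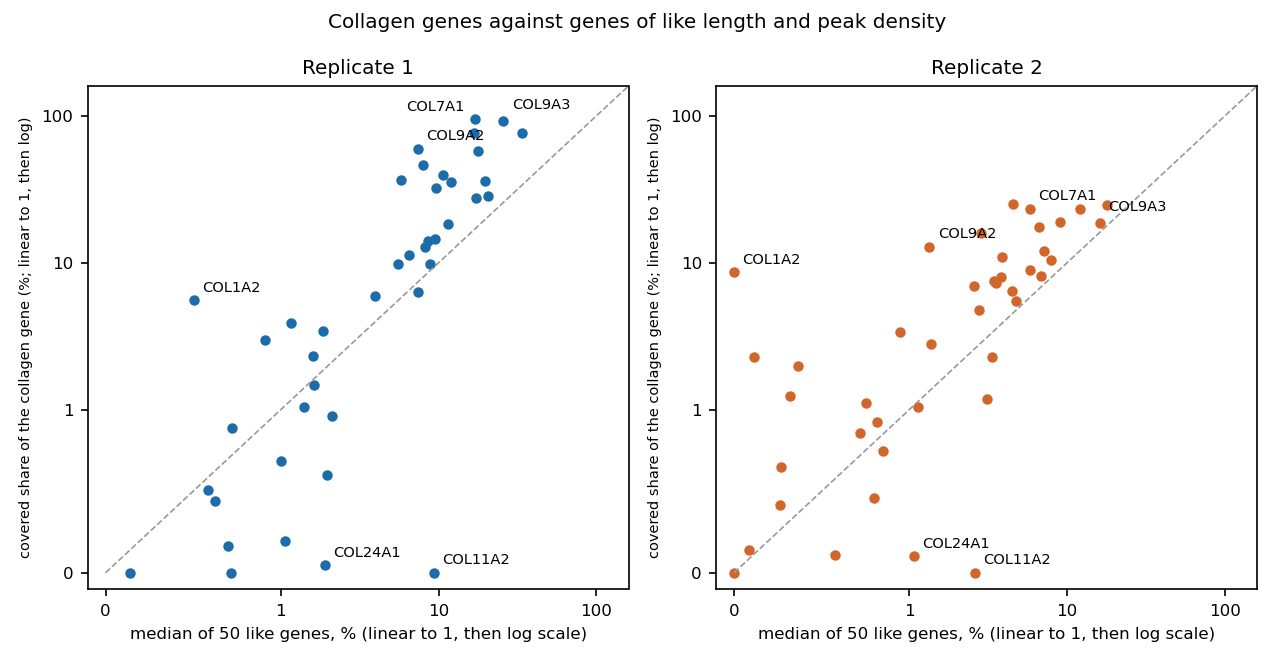
Covered share of each collagen gene (vertical axis, %) against the median of its 50 genes of like length and peak density (horizontal axis, %), 1 panel per replicate, both axes linear up to 1 and logarithmic above; the dashed line marks equality. In replicate 1, 28 of 42 points lie above the line and in replicate 2 33 of 42, with COL11A2 below it in both.

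The largest differences were found for COL7A1, with 95.4% against 17.0% in replicate 1 and 23.3% against 5.81% in replicate 2. It exceeded all 50 like genes in replicate 1 and 47 in replicate 2. COL9A3 exceeded all 50 in replicate 1 (91.8% against 25.8%) and 27 in replicate 2 (18.5% against 16.2%). COL20A1 likewise exceeded 50 (76.3% against 16.8%) and 35 (24.7% against 17.9%). COL9A2 exceeded 48 (60.01% against 7.39%) and 45 (12.9% against 1.34%), and COL16A1 exceeded 47 (46.1% against 7.93%) and all 50 (24.95% against 4.55%). COL2A1 exceeded 50 and 48, and COL4A2 43 and 50. COL1A2 exceeded 46 and 50, at medians of 0.506% and 0% in its like genes. Apart from COL1A2, these shares in replicate 2 rested largely on peaks of low −log10 q. The highest −log10 q in COL1A2 there was 2.29, and its share at a cut of 2 is not given here. With peaks of at least 2 alone, COL7A1, COL9A3, COL9A2 and COL2A1 had 0% there. COL20A1 then had 0.651%, COL16A1 1.03% and COL4A2 5.10%. In replicate 1 the same cut left 91.8% of COL9A3, 72.2% of COL20A1, 24.7% of COL16A1, 17.4% of COL4A2 and 14.9% of COL2A1.

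The largest deficit was that of COL11A2, at 0% against 9.35% and 2.61%. It was followed by COL24A1 (0.0463% against 1.91%, and 0.101% against 1.07%), which exceeded 2 of its 50 like genes in each replicate. COL28A1 had 0.599% against 1.95% and 0.456% against 0.797%. COL6A5 had 0.962% against 2.12% and 1.05% against 1.14%, and COL25A1 had 0.164% against 0.699% and 0.106% against 0.574%. Apart from COL11A2 these were genes of 139 kb to 494 kb.

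The covered share of the members differed by length. The 15 genes under 60 kb had a median covered share of 35.5% in replicate 1 and 11.9% in replicate 2, against 8.75% and 1.53% for all genes under 60 kb. Of these 15, 13 and 11 were above their like genes. The 13 genes from 60 to 170 kb had medians of 3.90% and 2.82%, against 2.54% and 1.43%. Here 9 and 12 were above their like genes. The 14 longer genes had 0.860% and 0.835%, against 1.78% and 1.18%, and 6 and 10 of them were above their like genes. Across members, covered share fell with length (rho −0.515 in replicate 1 and −0.430 in replicate 2) and rose with peaks per Mb in the flanks (rho 0.830 and 0.721). Over all genes the corresponding values were −0.150 and 0.101 for length and 0.613 and 0.464 for density. The members under 60 kb that were not above their like genes were COL11A2 and COL3A1 in both replicates and COL6A1 and COL6A2 in replicate 2.

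A count of peaks per Mb does not register how wide the neighbouring peaks were. Set against the covered share of their own flanks, 26 members were higher in replicate 1 (48.8% of all genes were) and 30 in replicate 2 (39.1% of all genes). The median difference was 1.59 and 1.34 percentage points. By this measure COL9A3 and COL20A1 no longer led, since their flanks were covered to over 60% in replicate 1. COL7A1, COL9A2, COL1A1, COL13A1 and COL16A1 exceeded their flanks by at least 32.4 percentage points in replicate 1 and by at least 8.60 in replicate 2. At a −log10 q of at least 2, replicate 2 covered 0% of COL7A1, COL9A2 and COL1A1, 4.46% of COL13A1 and 1.03% of COL16A1.

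**Figure D4:**
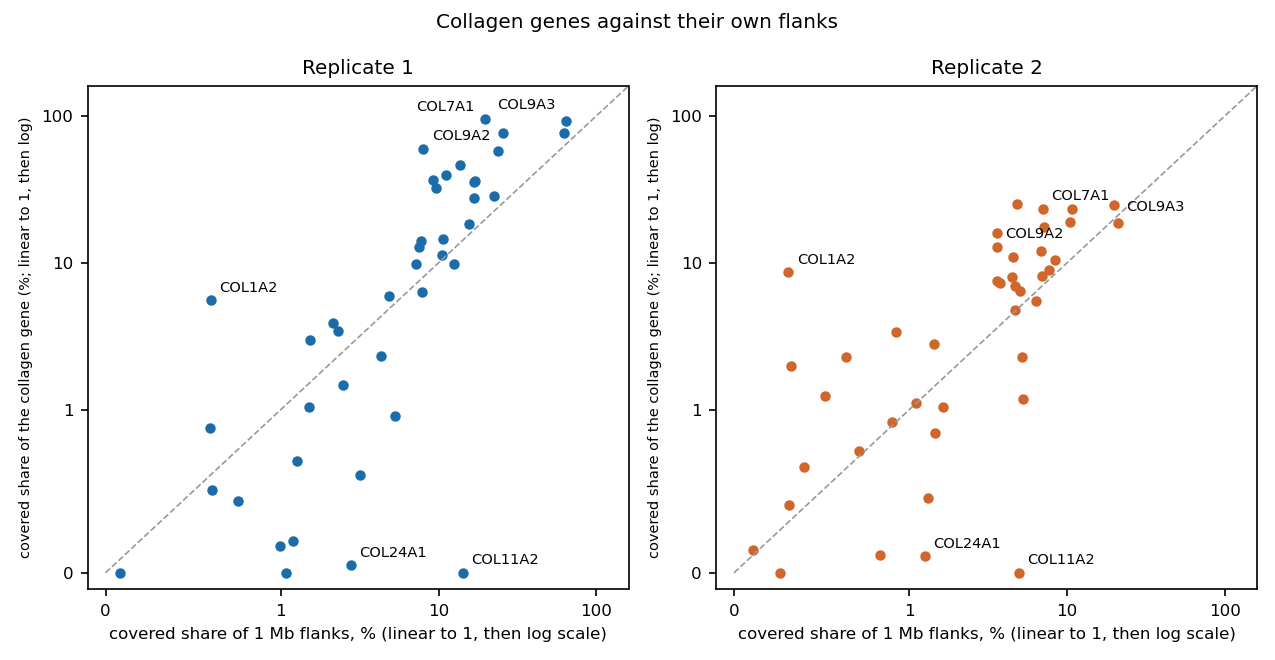
Covered share of each collagen gene (vertical axis, %) against that of its own flanks within 1 Mb (horizontal axis, %), 1 panel per replicate, both axes linear up to 1 and logarithmic above; the dashed line marks equality. COL9A3 lies near the line (91.8% against 64.1% and 18.5% against 20.9%), COL7A1 and COL9A2 well above it, and COL11A2 and COL24A1 below it.

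Wide peaks were a feature of replicate 1. There 12 of the 629 member peaks were at least 5 kb wide, or 1.91%, against 1.32% of the peaks at all genes, and they held 14.1% of the covered bases of the members (9.24% over all genes). In replicate 2 no member peak reached 5 kb, and the widest was 4400 bp, in COL4A2. The widest in replicate 1 measured 33269 bp (chr20:62790480-62823748); it began below COL9A3 and was the 2nd widest of the list. The shared region around it, 37780 bp, also met OGFR and MRGBP.

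Sharing of peaks between the replicates was close to that over all genes. Of the member peaks of replicate 1, 203 of 629 (32.3%) overlapped a peak of replicate 2, against 30.5% at all genes. Of those of replicate 2, 213 of 375 (56.8%) overlapped replicate 1, against 57.5%. In bases, 19.5% of the cover of replicate 1 was also covered in replicate 2 (18.1% over all genes, and 18.4% over the like genes). The bases covered in both were 1.47 times the product of the 2 shares within each gene, against 1.77 over all genes and 1.92 and 1.83 over the like genes of each replicate. Of the 38 members with a peak in each replicate, 31 had a shared region (82.1% for all such genes).

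At gene ends the collagen genes were near the background. Regions shared by the replicates lay at most 1 kb from an end in 13 of 42 members, against 34.3% of all genes. A peak of replicate 1, shared or not, lay within 1 kb of an end in 31 members (71.4% of all genes). For peaks of replicate 2 the count was 16 (38.3% of all genes). Among the 30 genes with a strand, a shared region lay within 1 kb of the start in 7 and of the last base in 5. Over all genes with a strand this held in 25.2% (3805, with the start taken as the end of the gene span) and 18.4%. The starts were those of COL4A1, COL4A2, COL7A1, COL8A2, COL9A2, COL13A1 and COL16A1. The last bases with a region within 1 kb, not always over them, were those of COL7A1, COL8A2, COL9A2, COL18A1 and COL26A1. COL1A1, COL5A2, COL9A3 and COL20A1, with no strand in the table, had a region at one end or at both.

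The best-ranked region at a collagen gene end was that of COL1A1, 10248 bp at its lower-coordinate end (chr17:50183030-50193277), with a highest fold of 3.47 and 2.49. COL8A2 followed with chr1:36125611-36127025 (3.54 and 2.33), COL9A2 with chr1:40298994-40300442 (3.32 and 2.32) and COL18A1 with chr21:45513580-45514098 (3.15 and 2.34), which also met SLC19A1. The region of COL5A2, chr2:189440846-189441879 (3.33 and 2.13), also met WDR75, and that of COL4A1 and COL4A2 was 10069 bp wide (chr13:110306316-110316384, 3.14 and 2.22). Regions at the ends of COL7A1, COL9A3 and COL20A1 reached neighbouring genes too, so they cannot be credited to the collagen gene alone.

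Cover along the gene body was described for the 30 members with a strand. Each gene was divided into 10 equal parts from start to end, and means over genes were taken in each part. In replicate 1 the first part had 23.2% ± 5.89 (SE over genes), parts 2 to 9 had means from 15.997% to 20.1%, and the last had 18.1% ± 4.21. For the 9221 other genes with a strand and at least the length of the shortest member, the first part had 16.01%, parts 2 to 9 had 8.30% to 11.7% and the last 13.9%. In replicate 2 the highest part of the members was the seventh, with 9.62% ± 2.62, and the first had 6.37% ± 2.03. The means rest on a few heavily covered genes such as COL7A1, which was covered in full in 8 of the 10 parts in replicate 1. The median of the members in the first part was 3.24% in replicate 1, below the 7.47% of the other genes. In parts 2 to 9 the median of the members ran from 1.79% to 9.47%, above the 0% of the other genes in each. Beyond the minimum length the other genes were not matched to the members, so their parts can differ in size. No part was tested.

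**Figure D5:**
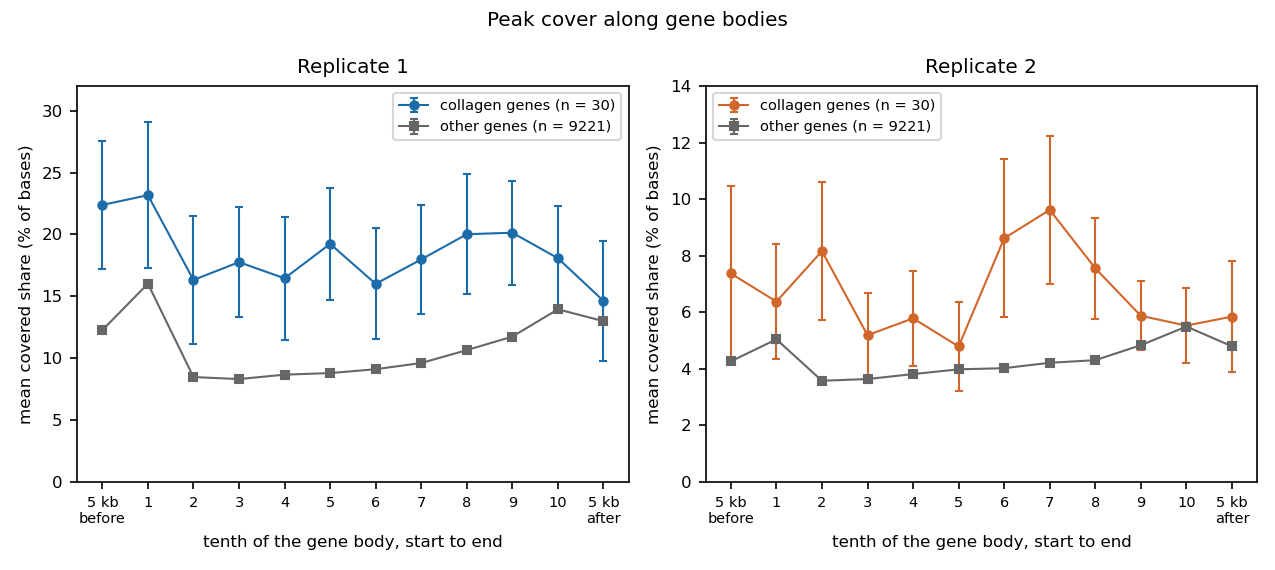
Mean covered share (%) in 10 equal parts of the gene body from start to end, and in the 5 kb before and after, for 30 collagen genes and 9221 other genes with a strand, 1 panel per replicate with its own vertical scale; bars are the SE over genes. In replicate 1 the collagen genes lie between 14.6% and 23.2% throughout, and the other genes fall from 16.01% in the first part to 8.30% in the third.

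Genes that make and handle collagen were counted in 4 lists. Of 20 genes for folding, hydroxylation and export of procollagen, 18 had a shared region in the body (53% of all genes did) and 14 at a gene end (34.3%). The median covered share was 21.5% in replicate 1 and 4.82% in replicate 2, against 5.34% and 1.42% over all genes. Above the median of their like genes were 16 in replicate 1 (47.4% of all genes) and 13 in replicate 2 (43.2% of all genes). SERPINH1, the collagen chaperone HSP47, had 73.7% and 13.1%. PPIB, a cyclophilin of the endoplasmic reticulum, had 66.2% and 13.5%, and FKBP10, a prolyl isomerase, had 55.4% and 46.8%. P4HB, the shared subunit of prolyl 4-hydroxylase, had 40.9% and 23.2%, whereas the lysyl hydroxylase PLOD2 had 0.458% and 0.350%.

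Of 13 genes for trimming of chain ends and cross-linking, 11 had a shared region (53% of all genes did) and 6 had one at an end (34.3%). Their median covered shares were 18.8% and 8.97%. The lysyl oxidase relatives LOXL1 (60.01% and 26.0%) and LOXL4 (56.4% and 29.8%) were high and LOX was low (7.80% and 0%). Of 11 collagen receptors, 6 had a shared region, near the 53% of all genes, and 1 had one at an end (34.3% of all genes), with medians of 2.44% and 1.16%. The integrin ITGA11 had 31.9% and 11.2%. DDR1, LAIR1, GP6 and OSCAR had no peak in either list. DDR1 lay in the same peak-free stretch of chromosome 6 as COL11A2. LAIR1, GP6 and OSCAR lay in a peak-free stretch of chromosome 19, of 1060 kb in replicate 1 and 1077 kb in replicate 2. It held 42 and 43 protein-coding genes. Alternate sequences of chromosome 19 held 3 peaks of replicate 1 and 0 of replicate 2. Whether these belong to the stretch was not examined. Of 7 collagen-cleaving enzymes, 4 had a shared region and 3 had one at an end, both near these shares of all genes. Their medians were 2.26% and 12.6%. MMP14, a membrane-bound collagenase, had 51.3% and 35.9%, MMP9 had 72.0% and 28.3%, and MMP1, the interstitial collagenase, had 2.18% and 0%. Genes above their like genes numbered 11 and 11 for trimming and cross-linking, 6 and 5 for receptors, and 5 and 6 for cleaving enzymes.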

How the data were processed

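Per the submitters' processing notes, Bowtie2 2.2.9, MACS2 2.1.1 and the build hg38 were used, with no role or order given; the sources used here give no caller settings. The authors deposited 1 list of broad peaks under each replicate number. In each deposited list column 5 is a score (in 99.99% of lines the whole-number part of 10 times column 9), column 7 the fold enrichment (a ratio), column 8 the −log10 p-value and column 9 the −log10 q-value of the peak, by the layout of the format. These are the authors' values and served to describe, rank or filter peaks. The peaks came as intervals counted from 0 and were converted to positions counted from 1. The inputs have no list of their own here.

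Gene spans and promoters came from RefSeq GRCh38.p14, the same build. Covered share was the percentage of the gene span under peaks; peaks and regions were counted over the span plus 1 kb on each side, and at gene ends within 1 kb of either end. Shared regions needed an overlap of 1 bp. For like genes, log10 length and log2 of 1 plus peaks per Mb were each divided by their SD over genes. Assembly gaps were not removed. With 1 list under each replicate number, no test over samples was run and no p-value is given. Covered shares and peak counts were tested on simulated lists, with 0 of 478 checks wrong. Each check was of a gene in a simulated list, so a gene was counted again for each list. Python 3.11.15, numpy 2.4.6 and pandas 2.3.3 were used. Members and gene lists were chosen with earlier results of these data known. Named in full were the 5 members with the highest mean share, the 5 with the largest excess and the 5 with the largest deficit to like genes, those with a region at a gene end (the 6 best in full), those without peaks, those with the widest region and the highest −log10 q, and neighbouring pairs; other members are given by their shares.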

Additional observations from a re-analysis of the deposited data

How the results depend on the processing

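No paired analysis was possible because there is 1 peak list under each replicate number, the inputs have no list of their own, and no result comes from a test. The median covered share, averaged over the replicates, was 6.59% (from 5.14% to 8.03% with 1 replicate left out). It was 1.05% at a −log10 q of at least 2, 2.19% with the 50% of peaks of higher fold and 4.47% with equal numbers of peaks. Members with a shared region in the body numbered 31. With 1 replicate left out, members with any peak of the other list numbered 39 for replicate 1 (82% of all genes) and 40 for replicate 2 (65.9%). Members with a shared region numbered 14 at a −log10 q of at least 2 (17.2% of all genes) and 16 with the peaks of higher fold (21.1%). Reciprocal overlap of 50% left 24 (28.2%). At gene ends there were 13; any peak of a single list lay there in 16 without replicate 1 (38.3% of all genes) and in 31 without replicate 2 (71.4%). Reciprocal overlap left 3 (10.3% of all genes), a −log10 q of at least 2 left 5 (7.88%) and the peaks of higher fold left 4 (8.04%). The median difference to like genes, averaged over replicates, was 2.73 percentage points (1.99 to 3.48 with 1 replicate left out). It was 0.292 at a −log10 q of at least 2, 0.480 with the peaks of higher fold, 1.45 with equal numbers, 4.30 with like length alone and, chosen after seeing the data, 1.46 against the genes' own flanks. Fewer peaks remain under each of the first 3, with equal numbers in replicate 1 only. With equal numbers the difference was 0.904 percentage points in replicate 1 and 1.99 in replicate 2. The median covered share was then 3.79% and 5.14%. In both measures replicate 1 was thus the lower, whereas with all peaks it was the higher. At a −log10 q of at least 2 the median difference to like genes was 0.559 in replicate 1 and 0.0247 in replicate 2. Members above their like genes then numbered 26 (43.4% of all genes were) and 22 (31.1%). Genes without cover cannot be above, so these percentages of all genes are not like for like.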

Other observations

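Collagen genes and pseudogenes outside the rule differed in cover. COL4A6 on chromosome X, a basement membrane chain of 284 kb, held 1 peak of replicate 1 and 3 of replicate 2, which covered 0.0948% and 0.627% of it. COL4A5, its neighbour, held none in either list. The pseudogene COL6A4P1 on chromosome 3 had 7.95% and 1.87% of its bases covered, and COL6A4P2, close to COL6A5 and COL6A6, had 1.30% and 0.941%.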
